A study of Caenorhabditis elegans with 12 samples.

Results

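The col genes of Caenorhabditis elegans are the numbered collagen genes, most of which encode collagens of the cuticle. A gene was taken as a member where its symbol in the probe annotation begins with col- and a digit and where it has a probe set that names no other gene. This gave 128 genes of the 17118 genes with such a probe set, out of 159 col symbols in the reference gene table. A further 20 col symbols are named only on probe sets shared with another gene, and 11 are not analysed here.

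Whole wild-type N2 (Bristol) nematodes were used throughout. First-stage (L1) larvae, 12 h old, were kept for 48 h in a control solution, or with artificially aged silver nanomaterials, pristine silver nanomaterials or silver nitrate (AgNO3), a dissolved source of silver ions. Each of the 3 silver exposures was set at its EC30 for reproduction, the concentration with a 30% effect, so the groups were matched for effect and not for silver dose; the concentrations are not analysed here. The series title calls the particles sulfidized, and the labels of the samples call them aged. RNA was extracted once per sample, at a single time point, from a population of 2000 to 3000 animals, and 3 Affymetrix C. elegans Genome arrays were run for each of the 4 groups. The labels do not say whether replicates came from separate cultures, so every p-value measures the spread between these samples only, which may be technical.

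Cuticle collagens are short collagens with Gly-X-Y repeats that the epidermis makes and secretes. They are hydroxylated, cleaved and cross-linked into the exoskeleton, which the animal replaces at each molt. Different collagens are made at different points of a molting cycle and in different stages, so their transcripts rise and fall in waves. In these whole-animal samples, fewer epidermal cells and less RNA per cell cannot be told apart, and all groups were sampled at the same time after the start and not at a matched developmental stage.

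All levels below are log2 array signals, after each array was scaled to a common median and signals under 16 were raised to 16. A level of 4 is therefore the floor, and a fold against a group with an array at the floor is a lower bound. Each member was read at its brightest probe set over the 12 arrays. Of the 128 members, 85 lay above the floor on every array, 38 were at the floor on some arrays, and 5 (col-8, col-79, col-86, col-126 and col-143) were at the floor on all 12. Members sit on all 6 chromosomes, with 37 on IV, 23 on V, 23 on II, 18 on X, 18 on I and 9 on III. Of the members, 28 were read on probe sets of the _s_at type and 22 on the _x_at type, which can pick up related transcripts, so signal from near-identical collagens may be mixed in them.

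The epidermis was present in every group. Its regulators lin-26 and elt-3 had group means from 9.53 to 9.82 and from 10.89 to 11.32. Over the 6 listed epidermis markers, 2 of which (dpy-7 and rol-6) are themselves cuticle collagens, the median difference from control was 0.34 with aged particles (4 higher, 2 lower), -0.13 with pristine particles (2 higher, 4 lower) and 0.06 with silver nitrate (4 higher, 2 lower). None of the 6 was called, and their part in the results was not tested. The log2 of their summed signal, in which the brightest markers weigh most, was 11.95 to 12.15 in control and 12.00 to 12.34 with aged particles. It was 11.91 to 12.04 with pristine particles and 12.12 to 12.36 with silver nitrate. The vitellogenin genes vit-2 and vit-5, which the adult hermaphrodite intestine expresses strongly, had group means of at most 4.21 and 4.42, at or near the floor. The third yolk gene listed, vit-6, lay above the floor on all 12 arrays, with group means from 6.88 to 7.04. Arrays correlated at 0.974 to 0.982 within groups and at 0.968 to 0.983 between groups. The difference between 3′ and 5′ probe sets of 4 control genes, a measure of RNA integrity, averaged 1.91 in control, 1.94 with aged particles, 1.85 with pristine particles and 1.83 with silver nitrate, and its ranges overlapped between all groups.

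Across the family, the highest of the 4 group means was most often that of aged particles. The aged group had the highest mean of the 4 groups for 82 of 128 members (64.1%), against 19.4% of all 22548 probe sets tested. For 61 members (47.7%) the lowest mean was that of silver nitrate, against 25.4% of all probe sets. The full order aged, control, pristine, silver nitrate from high to low held for 35 members (27.3%), against 3.96% of all probe sets. In 31 of 128 members all 3 aged arrays lay above all 9 others, as they did for 1.1% of all probe sets.

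Array by array, the median member lay above its control mean by 0.34, 0.56 and 0.29 with aged particles. The same median was -0.24, -0.08 and -0.17 with pristine particles and -0.19, -0.20 and -0.30 with silver nitrate, while the 3 control arrays gave -0.09, 0.00 and 0.01. The 3 aged arrays stood apart from the other 9 on this measure, and the pristine and silver nitrate arrays overlapped. At the floor were 13 to 17 members on the aged arrays, 15 to 25 on control, 20 to 23 on pristine and 26 to 29 on silver nitrate.

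**Figure D1:**
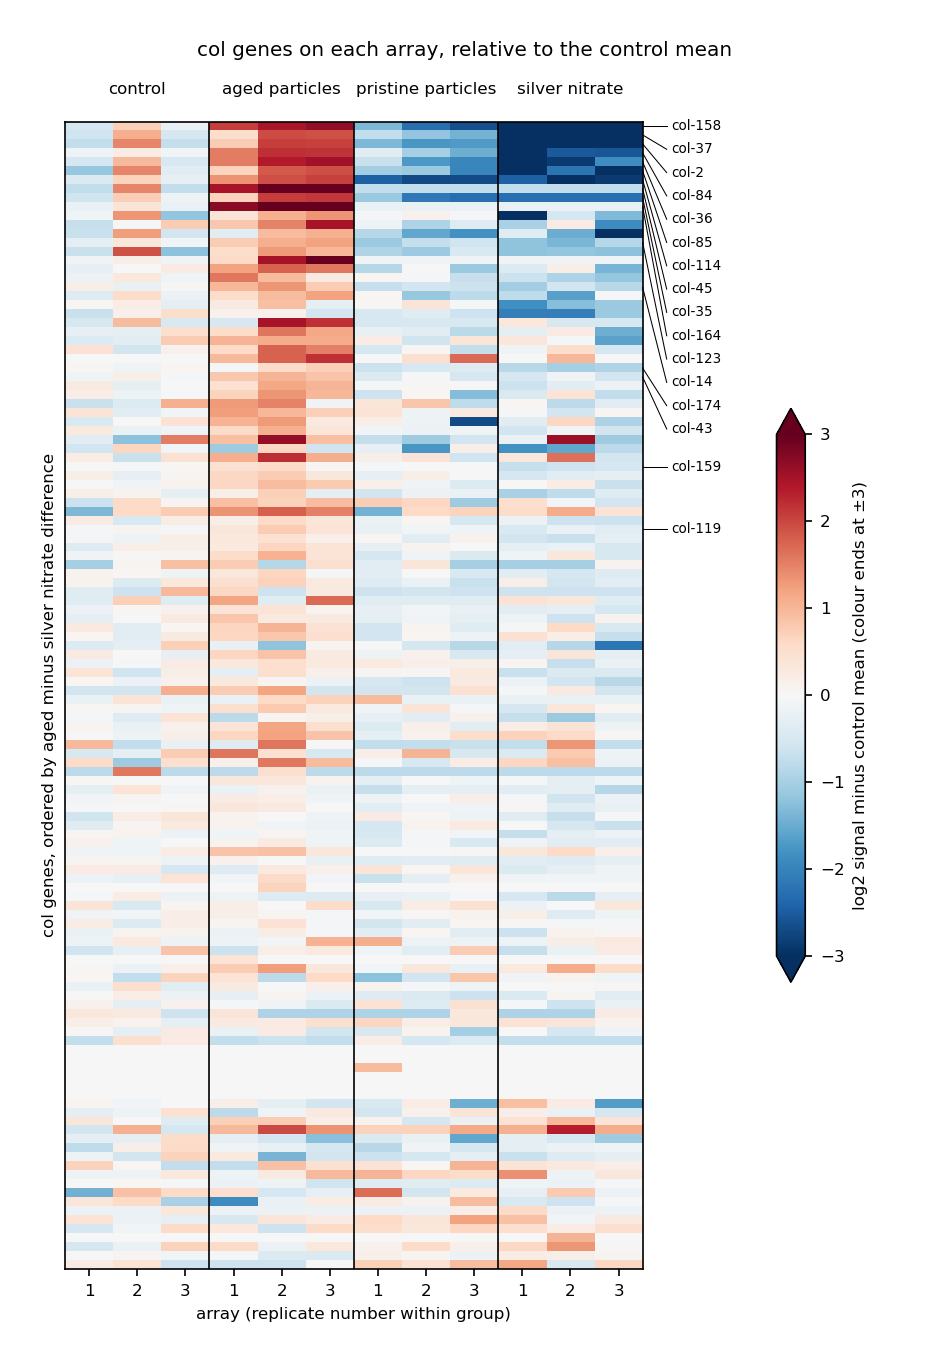
Log2 signal of each col gene (rows, ordered by the aged minus silver nitrate difference) on each of the 12 arrays (columns), minus the gene's control mean. Red is above and blue below the control mean, colours end at 3 in either direction, and the 16 labelled genes passed limma's test in the aged against silver nitrate comparison.

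Calls were made with limma on all probe sets, at a Benjamini-Hochberg adjusted p under 0.05 over all of them. In the 6 comparisons between groups, 16 members (12.5%) passed in at least 1 comparison, against 0.364% of all probe sets. Those 16 genes made 30 calls, and all 16 passed in the comparison of aged particles with silver nitrate. In 5 of them (col-35, col-37, col-45, col-158 and col-164) at least 1 whole group lay at the floor. Arrays at the floor show no spread and enter the estimate shared by the groups, so the SE and p of those genes come out too small. In limma's F test over the 4 groups, 7 members passed (col-164, col-158, col-114, col-84, col-37, col-14 and col-123), where 0.0621% of all probe sets passed.

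**Figure D2:**
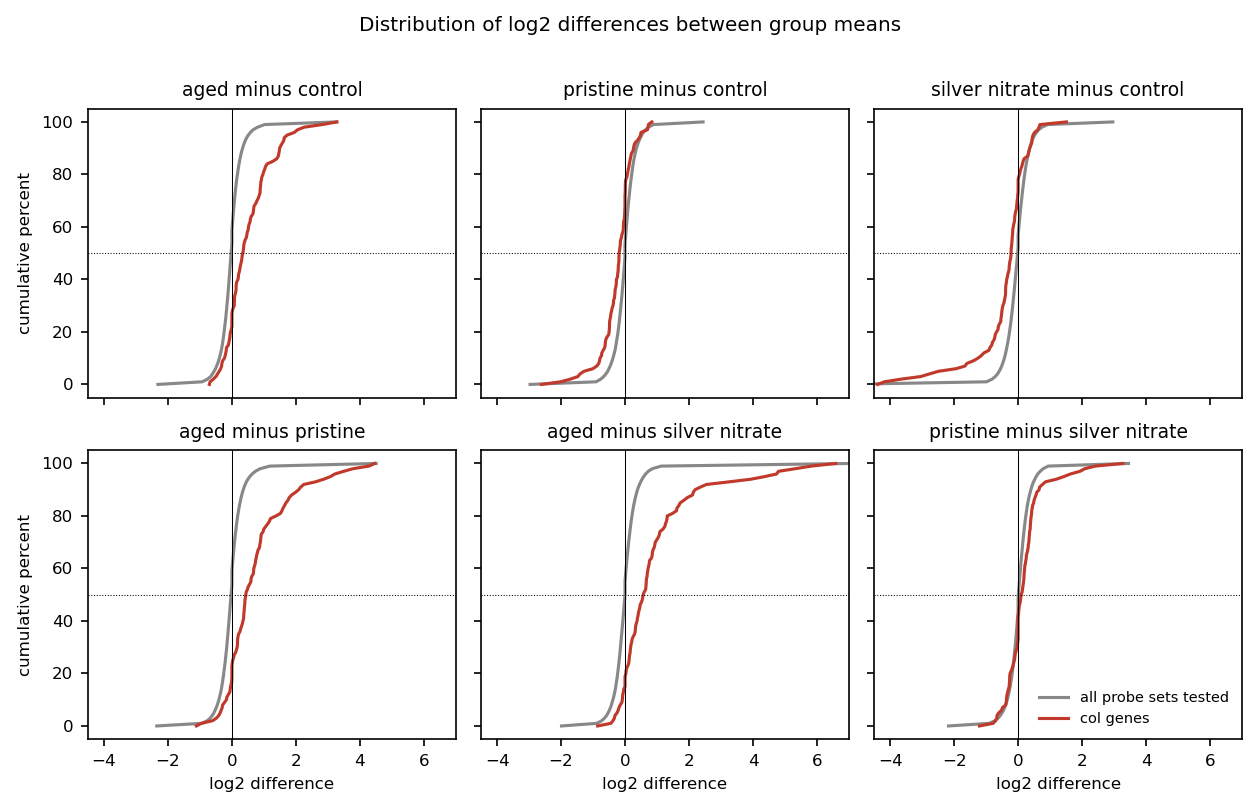
Cumulative distribution of the log2 difference between group means (x axis) for the 128 col genes (red) and all 22548 probe sets tested (grey), 1 panel per comparison, with the y axis in percent. Where the curves cross the 50 percent line, the col genes lie to the right of all probe sets in the 3 comparisons that start from aged particles (medians 0.34, 0.44 and 0.57) and to the left in pristine minus control (-0.19) and silver nitrate minus control (-0.22).

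Animals exposed to aged particles were compared with control. Most col genes lay higher with aged particles, 92 of 128 against 29 lower, with a median log2 difference of 0.34 where the median of all probe sets was -0.03. For 24 members the mean was over 2-fold higher and for none over 2-fold lower, against 1.05% and 0.665% of all probe sets. The 3 aged arrays lay wholly above the 3 controls for 42 members and wholly below for 2, against 4.37% and 6.7% of all probe sets. After adjustment, limma called only col-164 as higher, where 0.00443% of all probe sets were called higher and 0.00887% in either direction. An unadjusted p under 0.05 was found for 44 of 128 members and for 1860 of all 22548 probe sets.

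The collagen gene col-164 read 6.89, 7.34 and 7.31 with aged particles, against 4.57 on control replicate 2 and the floor on the other 2 controls. All 6 pristine and silver nitrate arrays were at the floor, so its signal was above the floor on the 3 aged arrays and on 1 control array. The rise over control was at least 7.96-fold (log2 difference 2.99 ± 0.16 SE, limma adjusted p = 0.00045). Because the 6 pristine and silver nitrate arrays at the floor show no spread, this SE and p come out too small. With the 6 compared arrays fitted alone the adjusted p of col-164 was 0.147, and no member was called.

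Other members with large differences from control did not pass. col-45 lay 3.28 higher with aged particles (limma adjusted p = 0.184), a bound set by 2 control arrays at the floor. col-158 lay 2.39 higher (limma adjusted p = 0.169), and its 3 aged arrays were all above the controls. Among members with smaller differences and arrays that did not overlap were col-114, higher by 1.77 (adjusted p = 0.184, limma), col-14, by 1.03 (0.174), and col-43, by 0.90 (0.195). The 2 members whose aged arrays all lay below the controls were col-140, at -0.70 (limma adjusted p = 0.715), and col-153, at -0.32 (0.485).

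With pristine particles more members lay lower than higher. Of 128 members, 86 lay lower than in control and 35 higher, with a median of -0.19 against 0.00 for all probe sets. Pristine arrays lay wholly below control for 17 members and wholly above for 3 (col-63, col-83 and col-163), where 5.98% and 5.33% of all probe sets did. For 8 members the mean was over 2-fold lower (0.603% of all probe sets) and for none over 2-fold higher. No member passed limma's test, where 0.00443% of all probe sets did. Unadjusted p was under 0.05 for 14 of 128 members and for 1945 of all 22548 probe sets.

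The smallest p in the comparison of pristine particles with control was that of col-114. It read 6.59, 7.69 and 6.78 in control and 4.56, 4.32 and 4.35 with pristine particles. All pristine arrays were below all controls and close to the floor, with a log2 difference of -2.61 ± 0.30 SE (limma adjusted p = 0.0642). The next were col-158 at -2.08 (0.173) and col-35 at -1.84 (0.31), both also without overlap.

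Silver nitrate gave lower levels in 93 of 128 members and higher levels in 28, with a median of -0.22 against -0.01 for all probe sets. The 3 nitrate arrays lay wholly below control for 28 members and wholly above for 3 (col-76, col-156 and col-176), against 8.03% and 6.05% of all probe sets. Over 2-fold lower were 16 members and over 2-fold higher 1, where 0.967% and 0.803% of all probe sets were. limma called 4 members as lower (col-158, col-37, col-114 and col-84), and none as higher. Of all probe sets 0.0887% were called lower, 0.0443% higher and 0.133% in either direction. Unadjusted p was under 0.05 for 31 of 128 members and for 2772 of all 22548 probe sets. Control and silver nitrate arrays enter this comparison and others too, so the comparisons are not independent of each other.

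col-158 read 7.71, 8.91 and 7.99 in control and was at the floor on all 3 silver nitrate arrays. It was at least 18.4-fold lower (log2 difference -4.20 ± 0.37 SE, limma adjusted p = 0.0104). Likewise col-37 read 7.79, 9.49 and 7.90 in control and the floor on all 3 silver nitrate arrays, at least 21-fold lower (-4.39 ± 0.50 SE, limma adjusted p = 0.0257). For both genes a signal well above the floor in control was not detectable above the floor with silver nitrate.

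col-84 read 7.75, 8.10 and 7.80 in control and the floor, 5.37 and 5.31 with silver nitrate, at least 7.93-fold lower (-2.99 ± 0.40 SE, limma adjusted p = 0.0454). col-114 read 4.57, the floor and 4.14 with silver nitrate, at least 6.90-fold lower (-2.79 ± 0.30 SE, limma adjusted p = 0.0257). The nitrate arrays of both genes stood below every control array. Of these 4 calls, that of col-84 was lost in each of the 12 fits that left out 1 array, that of col-37 in 6, of col-114 in 4 and of col-158 in 1. The count of 4 fell to 2 without pristine replicate 2 or nitrate replicate 1, to 1 without pristine replicate 1 or 3 or nitrate replicate 2, and to 0 without nitrate replicate 3 or with the 6 compared arrays fitted alone.

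col-2, a collagen known from dauer larvae, had one of the largest differences without passing. It read 8.56, 10.77 and 8.60 in control and 4.68, 5.17 and 5.72 with silver nitrate, a log2 difference of -4.12 ± 0.61 SE (limma adjusted p = 0.0558). The sole member over 2-fold higher with silver nitrate was col-149. It read 4.96, 6.58 and 4.97 in control and 6.57, 7.87 and 6.61 with silver nitrate, so the groups overlapped (log2 difference 1.51, limma adjusted p = 0.275).

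**Figure D3:**
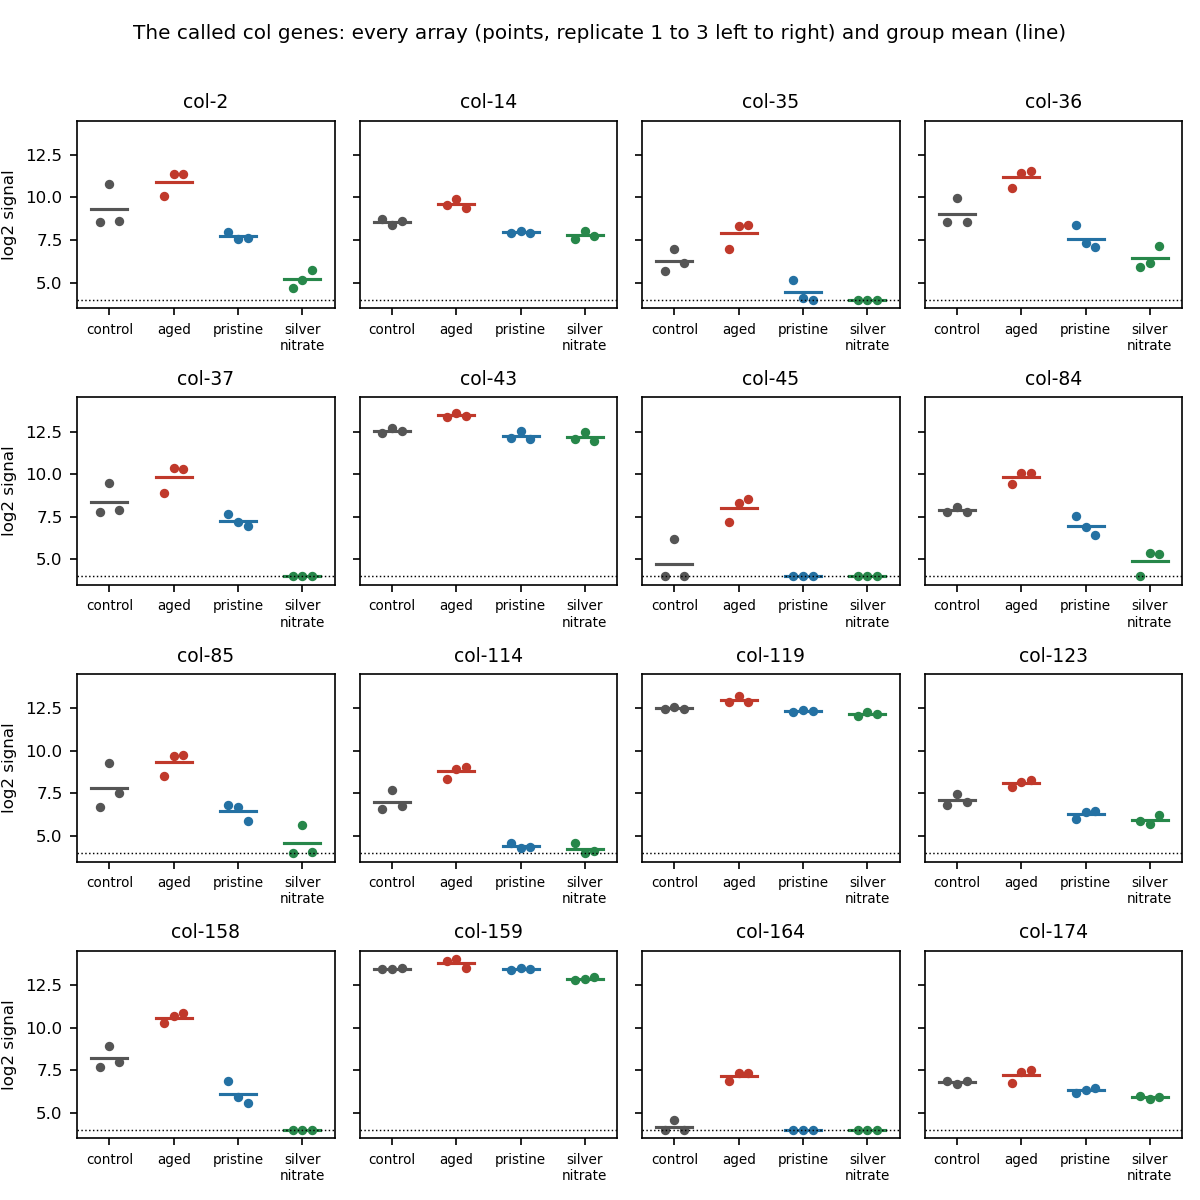
Log2 signal (y axis) of the 16 col genes called in at least 1 comparison, with a point for each array in replicate order and a line at the group mean. The dotted line is the floor at 4. In col-158, col-37 and col-35 all silver nitrate arrays lie on the floor, and in col-45 and col-164 all pristine and silver nitrate arrays do.

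Aged particles were next compared with silver nitrate, the pair of groups with the largest median difference over the family. Of 128 members, 103 lay higher with aged particles and 19 lower, with a median of 0.57 against 0.00 for all probe sets. Aged arrays lay wholly above silver nitrate for 53 members and wholly below for 1 (col-76), against 7.49% and 7.72% of all probe sets. For 37 members the mean was over 2-fold higher and for none over 2-fold lower, where 1.38% and 0.559% of all probe sets were. limma called 16 members as higher, and none as lower, against 0.208% of all probe sets called higher, 0.0443% called lower and 0.253% in either direction. An unadjusted p under 0.05 was found for 56 of 128 members and for 2478 of all 22548 probe sets.

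The called members were divided at a log2 difference of 3, a cutoff set after the values were seen. In 10 members (col-158, col-37, col-2, col-84, col-36, col-85, col-114, col-45, col-35 and col-164) the difference exceeded 3 on the log2 scale. Of all 22548 probe sets 20 exceeded it, and the next member, col-50, lay at 2.56 and did not pass.

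With aged particles col-158 read 10.27, 10.66 and 10.84, at least 96.3-fold above silver nitrate (log2 difference 6.59 ± 0.37 SE, limma adjusted p = 0.000329). col-37 read 8.92, 10.34 and 10.31, at least 58-fold above (5.86 ± 0.50 SE, limma adjusted p = 0.00338). Both lowest aged arrays lay far above the floor that held all nitrate arrays.

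col-2 read 10.06, 11.39 and 11.35 with aged particles, and was 53.7-fold above silver nitrate (5.75 ± 0.61 SE, limma adjusted p = 0.01). col-84 read 9.42, 10.07 and 10.05, at least 31-fold above (4.95 ± 0.40 SE, limma adjusted p = 0.00253). For both, aged arrays lay above, and nitrate arrays below, the range of the pristine arrays.

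The gene col-36 read 10.56, 11.41 and 11.55 with aged particles and 5.93, 6.16 and 7.16 with silver nitrate, a 27.1-fold difference (4.76 ± 0.53 SE, limma adjusted p = 0.0126). col-85 read 8.50, 9.69 and 9.77 with aged particles and the floor, 5.65 and 4.04 with silver nitrate, at least 27.1-fold apart (4.76 ± 0.72 SE, limma adjusted p = 0.0434). Its control arrays spread widely, at 6.70, 9.31 and 7.51, and overlapped the aged arrays.

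col-114 read 8.36, 8.96 and 9.07 with aged particles, at least 23.6-fold above silver nitrate (4.56 ± 0.30 SE, limma adjusted p = 0.000825). col-45 read 7.21, 8.30 and 8.52 with aged particles and the floor on all silver nitrate and pristine arrays, at least 16.1-fold lower there (4.01 ± 0.56 SE, limma adjusted p = 0.0276). In control col-45 was above the floor on replicate 2 alone, at 6.18.

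col-35 read 6.95, 8.34 and 8.38 with aged particles and the floor on all nitrate arrays, at least 14.9-fold apart (3.89 ± 0.48 SE, limma adjusted p = 0.0171). For col-164, whose nitrate arrays were all at the floor, the difference was at least 9.07-fold (3.18 ± 0.16 SE, limma adjusted p = 0.000264). The aged arrays of both genes lay above every nitrate and pristine array.

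The other 6 called members had differences from 0.84 to 2.17 and lay above the floor on every array. col-123 read 7.87, 8.19 and 8.31 with aged particles and 5.88, 5.73 and 6.24 with silver nitrate (2.17 ± 0.21 SE, limma adjusted p = 0.00634). col-14 read 9.57, 9.92 and 9.35 against 7.54, 8.03 and 7.74 (1.84 ± 0.17 SE, limma adjusted p = 0.00461). In both genes the control arrays lay between the groups without overlap.

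The gene col-174 read 6.77, 7.37 and 7.54 with aged particles and 5.99, 5.82 and 5.92 with silver nitrate (1.31 ± 0.18 SE, limma adjusted p = 0.023), and its aged arrays overlapped control. Among the bright members, col-43 read 13.37, 13.59 and 13.41 with aged particles and 12.04, 12.46 and 11.98 with silver nitrate (1.30 ± 0.16 SE, limma adjusted p = 0.0182). Its 3 aged arrays were the highest of the 12.

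For col-159 the levels were 13.93, 14.02 and 13.52 with aged particles and 12.79, 12.86 and 12.98 with silver nitrate (0.95 ± 0.12 SE, limma adjusted p = 0.0171). col-119, listed among the adult collagens, read 12.86, 13.26 and 12.90 against 12.03, 12.28 and 12.18 (0.84 ± 0.11 SE, limma adjusted p = 0.0214). Nitrate arrays of col-159 lay below every other array, and aged arrays of col-119 above every other array. All of col-43, col-119 and col-159 were read on _x_at probe sets.

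Fitting only the 6 compared arrays left 3 of the 16 calls, those of col-114, col-158 and col-164. Leaving out aged replicate 2 or 3 left 9, nitrate replicate 1 left 8 and nitrate replicate 3 left 10.

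**Figure D4:**
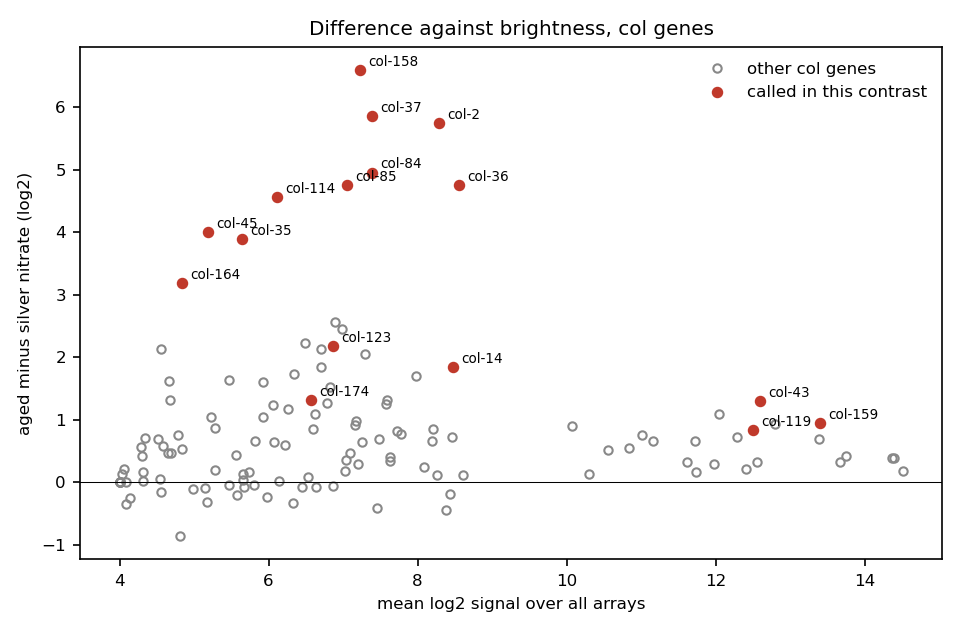
Aged minus silver nitrate log2 difference (y axis) of each col gene against its mean log2 signal over all 12 arrays (x axis). Filled points are the 16 members called in this comparison: 10 of them lie above 3, and the bright members col-43, col-119 and col-159 lie near 1.

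Differences between the particle preparations were tested directly. With aged particles 98 of 128 members lay higher than with pristine particles and 24 lower, a median of 0.44 against -0.03 for all probe sets. The arrays did not overlap for 58 members higher and 3 lower (col-121, col-122 and col-163), where 6.85% and 8.77% of all probe sets did not. Over 2-fold higher were 32 members and over 2-fold lower 2 (col-163 and col-69), against 1.51% and 0.692% of all probe sets. limma called 9 members as higher (col-164, col-114, col-158, col-14, col-123, col-43, col-35, col-84 and col-45), and none as lower. Of all probe sets 0.0976% were called higher, 0.0133% lower and 0.111% in either direction. Unadjusted p was under 0.05 for 60 of 128 members and for 2317 of all 22548 probe sets.

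The smallest adjusted p was that of col-164, at least 9.07-fold higher with aged than with pristine particles (3.18 ± 0.16 SE, limma adjusted p = 0.000264). col-114 was 20.9-fold higher (4.39 ± 0.30 SE, limma adjusted p = 0.00173). col-158, which read 6.86, 5.94 and 5.57 with pristine particles, was 22.1-fold higher (4.47 ± 0.37 SE, limma adjusted p = 0.00623). In all 3 genes the aged and pristine arrays did not overlap.

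col-14 read 7.89, 8.02 and 7.93 with pristine particles, 1.66 below aged (SE 0.17, limma adjusted p = 0.0242). col-123 read 5.98, 6.39 and 6.49, 1.83 below (SE 0.21, limma adjusted p = 0.0413). The calls of col-43, col-35, col-84 and col-45 had a limma adjusted p of 0.0496 each, just under the threshold, with differences of 1.23, 3.47, 2.90 and 4.01. Each of these last 4 calls was lost in 10 or 11 of the 12 fits that left out 1 array.

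With the aged and pristine arrays fitted alone, 2 of the 9 calls remained (col-114 and col-164). The count fell to 3 without control replicate 3 or any of the pristine arrays, to 4 without aged replicate 2 or 3, and to 5 without control replicate 1 or nitrate replicate 1 or 3.

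Between pristine particles and silver nitrate no member passed limma's test, where 0.00443% of all probe sets did. An unadjusted p under 0.05 was found for 18 of 128 members and for 2152 of all 22548 probe sets. Of 128 members 75 lay higher with pristine particles and 42 lower, with a median of 0.10 against 0.01. The arrays did not overlap for 21 members higher and 3 lower (col-98, col-153 and col-156), against 7.77% and 5.75% of all probe sets. Over 2-fold higher were 9 members and over 2-fold lower 1 (col-41), against 0.763% and 0.63% of all probe sets.

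The largest of these differences was in col-37. It read 7.64, 7.21 and 6.97 with pristine particles against the floor on all nitrate arrays, a log2 difference of 3.28 that is a lower bound (limma adjusted p = 0.161). col-2 lay 2.52 higher (0.241), with 7.97, 7.56 and 7.60 against 4.68, 5.17 and 5.72. The groups did not overlap in either gene. col-158 differed by 2.12 (limma adjusted p = 0.18) and col-159 by 0.58 (0.204).

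The stage-linked members were listed separately, and none of them passed against control in any exposure. col-19, the adult-specific collagen used as a marker of adult epidermis, read 5.37, 6.19 and 6.57 in control, 6.17, 6.18 and 5.50 with aged particles and 5.56, 5.68 and 5.43 with pristine particles. With silver nitrate it was at the floor on replicates 1 and 2 and read 4.93 on replicate 3, below every other array (log2 difference from control -1.74, limma adjusted p = 0.105). Its levels with aged particles overlapped control.

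Of the other adult-listed collagens, col-119 differed from control by 0.51 with aged particles (limma adjusted p = 0.264) and col-120 by -0.49 (0.857). col-120 was at the floor on 2 arrays of each silver group. The listed L4 collagens col-38, col-49 and col-63 had differences from -0.79 to 0.39 in the 3 comparisons with control. Of these, col-38 was above the floor only on control replicate 2 (6.36) and aged replicate 2 (5.26). col-49 had arrays at the floor in every group, so the differences of both say little. In neither list did a gene pass limma's test against control.

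col-17, a larval collagen that falls in adults, read 11.91, 11.27 and 11.67 in control and 12.26, 12.64 and 12.05 with aged particles, without overlap (difference 0.70, limma adjusted p = 0.59). Of the dauer-linked collagens, col-2 is described above, and col-40 read 4.89 to 7.11 over the 9 arrays of the 3 silver groups and the floor, 6.32 and 6.01 in control. Its groups overlapped in every comparison. The transmembrane and neuronal collagen col-99, which is not a cuticle collagen, had differences from control of -0.20, 0.16 and -0.28 with aged particles, pristine particles and silver nitrate, and none passed.

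The 10 members with the highest mean over all arrays were col-93, col-160, col-125, col-147, col-107, col-159, col-146, col-12, col-43 and col-157. Of these only col-43 and col-159 were called in any comparison. col-93 read 14.41 to 14.72 in control, 14.47 to 14.70 with aged particles, 14.43 to 14.63 with pristine particles and 14.13 to 14.71 with silver nitrate, so all groups overlapped. Close to the limit of the test in aged against silver nitrate were col-146, higher by 0.69 (limma adjusted p = 0.054), and col-12, higher by 0.94 (0.058).

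The separation between groups differed with brightness. The 42 brightest members had a median aged minus silver nitrate difference of 0.66 and 6 calls, the 43 of middle brightness 0.99 and 7 calls, and the 43 dimmest 0.16 and 3 calls. Among the dimmest, values at the floor on both sides bring differences toward 0.

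Members that lie close together were compared. In 11 groups, 25 members lay within 10 kb of another member in the reference gene order (WBcel235). On chromosome I, col-50 and col-51 lay at -1.64 and -1.65 against control with silver nitrate, and neither passed limma's test. Silver nitrate replicate 1 was the lowest nitrate array for col-50 and the highest for col-51. With pristine particles the 2 genes lay at 0.01 and -1.41. On chromosome II, col-20 lay at -1.41 with silver nitrate while its neighbours col-17 and col-73 lay at 0.03 and -0.08.

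A gene could be read on more than 1 probe set for 16 members, with 2 each. Their differences had the same sign on both probe sets in 12 of 16 for aged against control, 11 of 16 for aged against silver nitrate and 10 of 16 for pristine against control. It was the same in 9 of 16 for silver nitrate against control and for aged against pristine, and in 7 of 16 for pristine against silver nitrate. In no member did both probe sets have an unadjusted p under 0.05 with opposite signs. Of the called members only col-119 has a second single-gene probe set. It was dim, with a mean of 5.15, and its aged minus silver nitrate difference was 0.56 against 0.84 on the brighter set.

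Over the members with the widest differences, the same arrays stood high or low within their groups. In all 10 members with aged minus silver nitrate differences over 3, control replicate 2 was the highest control, against 34 of the other 118 members and 36.1% of all probe sets. Aged replicate 1 was the lowest aged array in all 10, against 43 of the other 118 and 26% of all probe sets. Pristine replicate 1 was the highest pristine array in 8 of the 10, against 25 of the other 118 and 30.1% of all probe sets.

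Control replicate 2 lay more than 1 above both other controls for 12 members (9.38%), against 0.94% of all probe sets. For control replicate 3 this held for 8 members (6.25%), against 2.17% of all probe sets. In col-2 control replicate 2 read 10.77, inside the range of the aged arrays, and in col-85 it read 9.31. Without control replicate 2, limma called 3 members in aged against control in place of 1, and 12 in the F test in place of 7. Over all probe sets the calls without this array also rose, from 2 to 16 and from 14 to 43. Without aged replicate 1, 2 members were called in aged against control, where 8 of all probe sets were. Without aged replicate 2 the F test called 4 members, and 15 of all probe sets.

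Silver nitrate replicate 2 lay more than 1 above both other nitrate arrays for 7 members (5.47%), against 0.785% of all probe sets. For col-41, a target of the DBL-1 body size pathway, it read 8.21 against 5.44 and 4.59. The same array had the highest summed signal of the molting genes in its group, 11.50 on the log2 scale against 10.47 and 10.28. The part of molting-cycle differences in these results was not tested.

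Other genes of the collagen pathway were read from fixed lists. The furrow collagens, which form the annular furrows, were measured for 5 of 6 (dpy-2, dpy-3, dpy-7, dpy-8 and dpy-9). All 5 lay higher with aged particles than in control, with a median of 0.84, and none passed limma's test. dpy-9 read the floor, the floor and 4.56 in control and 6.46, 7.31 and 5.77 with aged particles. With silver nitrate it read the floor, 6.87 and the floor, and across the 5 genes the median difference from control was -0.06. With pristine particles 3 of the 5 lay lower and 2 higher, with a median of -0.76.

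Other named cuticle collagens were measured for 13 of 14, and 9 lay higher with aged particles, with a median of 0.64 and none called. rol-8 read 9.22, 9.48 and 9.46 in control, 10.55, 11.51 and 11.30 with aged particles and 8.62, 9.43 and 7.64 with silver nitrate. It lay 2.56 higher with aged particles than with silver nitrate (limma adjusted p = 0.0535). Against control, pristine particles gave a median of -0.32 over the 13 genes, with 11 lower and 2 higher, and silver nitrate a median of 0.01, with 7 higher and 6 lower.

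The basement membrane collagens emb-9, let-2 and cle-1 differed from control by 0.88, 0.47 and -0.41 with aged particles, and none passed. Prolyl hydroxylases and disulfide isomerases that modify and fold collagen chains had a median of 0.25 over 6 of 7 genes, led by phy-2 at 0.68. With aged particles phy-2 read 7.19, 9.10 and 7.32, against 7.31, 6.97 and 7.29 in control, so the groups overlapped. Median differences of the cleavage proteases bli-4 and dpy-31 and of 5 cross-linking genes, the dual oxidase bli-3 among them, were both -0.06. Over 5 secretion genes the median was 0.30. Among them was tfg-1, a factor of vesicle export from the endoplasmic reticulum. It lay at 1.17 with aged particles, 2.15 with pristine particles and 1.58 with silver nitrate. Its arrays read 4.14, the floor and 4.15 in control and 5.47, the floor and 6.34 with aged particles. They read 6.33, 6.03 and 6.37 with pristine particles and 5.44, 6.28 and 5.30 with silver nitrate, wholly above control in both. None of these genes was called in any comparison.

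Regulators of collagen genes had a median of -0.04 over 19 genes with aged particles, and none was called in any comparison. The largest difference was that of lin-42, a period-like gene that cycles with the molts, at 0.87 with aged particles, -1.09 with pristine particles and -0.41 with silver nitrate. Its pristine arrays read the floor, the floor and 5.38. The smallest F test p of the list was that of sma-2, at -0.25, -0.70 and -0.42 in the same order. Its arrays in all 3 exposures lay wholly below control. The molting list had a median of 0.61 with aged particles against control, with 10 of 11 genes higher, and medians of -0.11 with pristine particles (8 lower, 2 higher) and 0.07 with silver nitrate (8 higher, 2 lower). Its 1 called gene, bli-5, a protease inhibitor of the cuticle, read 5.35, 5.63 and 4.84 with aged particles and the floor on all 9 other arrays. It passed in aged against pristine and in aged against silver nitrate, and not against control. The 9 arrays of bli-5 at the floor show no spread, so its SE and p come out too small.

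**Figure D5:**
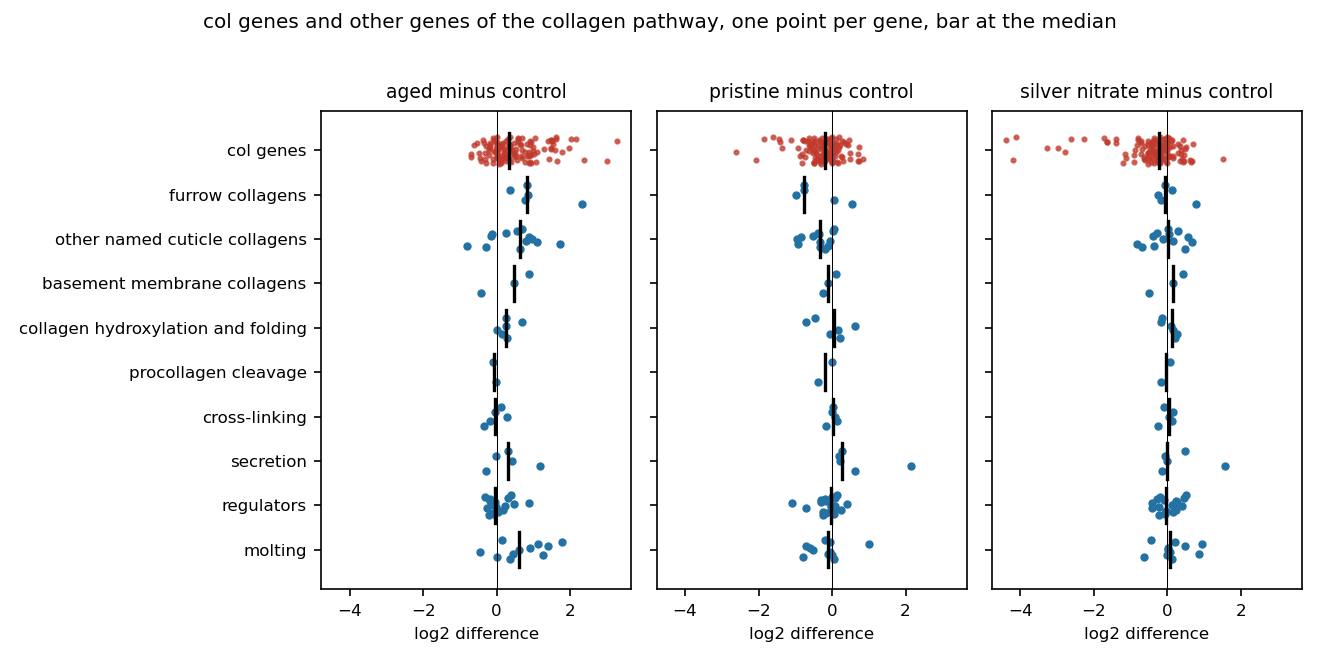
Log2 difference from control (x axis) for the col genes (red) and other genes of the collagen pathway (blue), 1 point per gene and a bar at each list's median, for the 3 exposures. With aged particles the median is 0.34 for col genes, 0.84 for furrow collagens and 0.61 for molting genes, and with silver nitrate the medians are -0.22, -0.06 and 0.07.

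The molting genes lay higher together with the col genes on the aged arrays. The log2 of their summed signal, in which the brightest genes weigh most, was 11.12, 11.83 and 11.34 with aged particles. This was above the control range of 10.65 to 10.88. The value was 10.17 to 10.53 with pristine particles, below control, and 10.28 to 11.50 with silver nitrate, which spanned the control range. For the furrow collagens the log2 of the summed signal was 8.55 to 9.21 in control and 9.43 to 10.33 with aged particles. With pristine particles it was 7.99 to 9.04, and with silver nitrate 7.87 to 10.22. The part of a shift in molting stage in the col gene differences was not tested.

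Markers of other tissues were read in the same way, and none was called in any comparison. The germline genes glh-1, pgl-1, gld-1 and him-3 had median differences from control of 0.50, 0.71 and 0.77 with aged particles, pristine particles and silver nitrate, all in 1 direction. Over 5 body wall muscle genes the median was 0.31 with aged particles, 0.14 with pristine particles and 0.14 with silver nitrate. The 4 neuron genes had medians of 0.01, -0.01 and 0.04 in the 3 exposures, and the 4 intestine genes 0.12, 0.10 and 0.35. Sperm genes, measured for 3 of 4, had medians of 0.18, -0.27 and -0.09. The log2 of the summed germline signal was 9.16 to 9.83 in control and 9.51 to 10.27 with aged particles. It was 10.01 to 10.39 with pristine particles and 10.12 to 10.37 with silver nitrate, both above control. The part of the germline signal in the results was not tested.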

How the data were processed

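Total RNA (100 ng) was labelled with biotin by the Affymetrix IVT Express kit after Trizol extraction, per the labels' protocols. The authors deposited 1 linear intensity per probe set and array, already scaled between arrays, as the values show. The summarisation method is not given in the sources used here. Of 22625 probe sets, 77 array controls were left out. The remaining deposited intensities were scaled here to a common array median, raised to a floor of 16 and taken as log2 intensity. Array medians had been 119.1 to 135.1, and 13.7% to 15.8% of values fell under the floor, and the number of arrays limits precision.

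limma 3.58.1 (R 4.3.3) fitted 1 mean per group over 12 arrays (8 residual degrees of freedom), with Benjamini-Hochberg adjustment over all 22548 probe sets. The script was tested on simulated data. Probe sets were named from the platform annotation, and all 128 members matched the RefSeq table (WBcel235) by gene ID. Genes were named when called, among the 6 smallest p of a comparison, among the 10 brightest, in a stage list, or near another member. Of other pathway lists, the called genes or the 2 with the smallest F test p could be named, and some of these were left out for length, sqt-3, pdi-3 and sec-23 among them. col-41, members of counts of 5 or fewer and pathway genes beyond these were named, and the set with differences over 3 and the comparison of replicates chosen, after values were seen. Members and lists were chosen with earlier results of these data known. Same-numbered arrays showed deviations correlated at -0.12 to 0.13 between control and a silver group and at 0.04 to 0.14 between silver groups. These weak values do not settle whether the numbers pair samples.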

Additional observations from a re-analysis of the deposited data

Results flagged for a closer look

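A probe set shared by col-155 and col-154, and so outside the member rule, passed limma's test in aged particles against silver nitrate. It lay 0.67 higher on the log2 scale (limma adjusted p = 0.0494), at 13.89, 13.94 and 13.91 with aged particles and 13.11, 13.25 and 13.37 with silver nitrate, and the groups did not overlap. A second probe set shared by the same genes lay 0.54 higher and did not pass. Of the 17 shared probe sets, all 17 lay higher with aged particles than with silver nitrate (median 0.52), and 16 lay higher than control (median 0.40). Of all probe sets tested, 44.8% and 41.0% lay higher in these comparisons. Several of the 17 name the same genes, so they are not independent readings.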

How the results depend on the processing

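No result turned direction under any alternative run. Of the 30 calls, all stayed under the deposited scaling, quantile normalisation and a trend and robust fit, 24 with a floor of 1, 21 with a floor of 64, 29 with the mean of a gene's probe sets and 5 with the compared arrays fitted alone. Of the 30, 12 held in every fit that left out 1 array; where leaving out 1 array left a group with 2, the groups shared 1 estimate of spread. The cause of the changes was not tested beyond the smaller number of arrays or probe sets in some fits.

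Called members in aged against control (1) numbered 3 among probe sets above median brightness, and 0 without the dimmest 25 percent or with the compared arrays alone. In pristine against control (0) they numbered 1 under the deposited scaling, quantile normalisation, the trend and robust fit and both brightness filters. In silver nitrate against control (4) they numbered 0 with a floor of 64 or the compared arrays alone, and 9 above median brightness. In aged against pristine (9) they numbered 5 with a floor of 1, 14 with the trend and robust fit and 2 with the compared arrays alone, and in aged against silver nitrate (16) 3 with the compared arrays alone. In pristine against silver nitrate (0) they numbered 1 with a floor of 1 and 5 above median brightness. In the F test (7) they numbered 14 under the deposited scaling, 18 with the trend and robust fit, 16 above median brightness and 13 without the dimmest 25 percent. Over all probe sets the calls also changed. In the F test they went from 14 to 66, 114, 224 and 61 in the same order. Above median brightness (11274 probe sets) they went from 2 to 13 in aged against control and 30 to 185 in silver nitrate against control. In pristine against silver nitrate they went from 1 to 80 there. Those in aged against pristine went from 25 to 11, 95 and 8 in the order above. With the compared arrays alone those in aged against silver nitrate went from 57 to 13.

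With the replicate number as a block, the calls numbered 2 in aged against control and 1 in silver nitrate against control. They numbered 6 in aged against pristine, 12 in aged against silver nitrate, 8 in the F test and 0 in both other comparisons. Over all probe sets the block fit gave 7, 10, 14, 37 and 26 calls in the same order. Without the block these had been 2, 30, 25, 57 and 14. Of the 30 calls of members, 10 were lost. Whether the numbers pair the samples is not settled: same-numbered deviations correlated at -0.12 to 0.14, and all those between silver groups were positive (0.04 to 0.14).

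The median difference of the members moved to 0.18 for aged against control, -0.045 for pristine against control and 0.33 for aged against silver nitrate with a floor of 64. For silver nitrate against control it was -0.16 under the deposited scaling, -0.32 with a floor of 1, -0.13 with a floor of 64 and -0.28 without the dimmest 25 percent. It was 0.60 for aged against pristine without the dimmest 25 percent, and for pristine against silver nitrate 0.19 with a floor of 1 and 0.00 with a floor of 64.

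Leaving out each array in turn gave medians of 0.29 to 0.39 for aged against control, 0.37 to 0.57 for aged against pristine, 0.44 to 0.63 for aged against silver nitrate, -0.20 to -0.11 for pristine against control, 0.02 to 0.12 for pristine against silver nitrate and -0.29 to -0.16 for silver nitrate against control. Called members ranged from 1 to 3, 3 to 9, 8 to 17, 0 to 1, 0 to 0 and 0 to 4 in the same order, and from 4 to 12 in the F test. Over all probe sets, calls ranged from 2 to 16, 5 to 24 and 24 to 67 in the first 3 of these comparisons. They ranged from 1 to 17, 0 to 13 and 4 to 46 in the other 3. In the F test they ranged from 12 to 43. Signal near the floor limits the dim members: their folds are bounds, and 43 members were at the floor on at least 1 array.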
